A study of Mus musculus with 6 samples.

Results

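Axonemal dynein heavy chains are the very large motor proteins that bend a motile cilium. They were followed here in mouse cells driven to become multiciliated ependymal cells, the ciliated lining of the brain ventricles, with or without the gene Edf1, which encodes a small transcriptional co-activator. The 10 genes were the rows of the deposited count table with the symbols Dnah1, Dnah2, Dnah3, Dnah5, Dnah6, Dnah7a, Dnah9, Dnah10, Dnah11 and Dnah12, out of 22851 rows in all. All 10 had enough counts to be tested, among 14243 tested genes. Radial glial cells, the neural progenitors beside the ventricles, came from brains of mice aged P0 to P3 on a C57BL/6J background. They were grown in DMEM with 10% FBS and antibiotics and then kept without FBS for 6 days. One group was wild type (WT) and the other was from Edf1 knockout (KO) mice made with CRISPR/Cas9, with 3 biological replicates each according to the series' design. Every group therefore shares the culture and the serum withdrawal, and the knockout was not limited to ciliated cells. The deleted part of Edf1 and any pooling of animals were not given in the sources used here.

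A motile cilium carries rows of outer and inner dynein arms on its microtubule doublets, and each arm contains heavy chains that hydrolyse ATP and slide one doublet along the next. Outer arms set the beat frequency and hold a γ-type heavy chain, Dnah5, with a β-type chain that is Dnah11 in the proximal part and Dnah9 in the distal part of airway cilia. Inner arms shape the bend: Dnah2 and Dnah10 are the 2 chains of the two-headed inner arm, and Dnah1, Dnah3, Dnah6, Dnah7a and Dnah12 are single-headed types. Heavy chains are assembled with their smaller subunits in the cytoplasm with dedicated assembly factors, and their genes are switched on during multiciliation under Foxj1 and RFX factors.

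The libraries held between 13071766 and 28087006 counts. WT replicate 2, the shallowest, stood apart from the other WT libraries, with a chi-square per degree of freedom of 8.68 and 10 against them, where they gave 3.48 between themselves. It held the lowest WT value of Dnah5, Dnah9, Dnah11, Dnah2, Dnah3, Dnah6, Dnah10 and Dnah12. Without it, 9 of the 10 heavy chain genes were still called lower in Edf1 KO, with log2 fold changes from -1.79 (Dnah11) to -0.39 (Dnah9), and Dnah7a did not pass (-0.26). That fit called 4326 of the 14243 tested genes in either direction, against 3833 with all libraries, of which 2029 were lower and 1804 higher. The knockout itself was visible in Edf1, which went from 82.9 ± 2.85 CPM (the usual depth-normalised count, SD, n = 3) to 11.3 ± 1.72 CPM (log2 fold change -2.85, SE 0.091, adjusted p = 5.46e-09, edgeR). Of 12 markers of multiciliated ependymal cells, 11 fell and Mia did not pass (0.014), where 14.2% of all tested genes were called lower. The list median was -0.79, and the summed level was 2025 to 2340 CPM in WT and 1269 to 1341 CPM in KO. All 12 were present in both groups, so the labelled cell type was represented in each.

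Nearly all of the heavy chain genes were lower in Edf1 KO cells, and by very different amounts. With edgeR's quasi-likelihood test and Benjamini-Hochberg adjustment over all tested genes, 9 of 10 passed an adjusted p of 0.05 with a lower level in KO, against a background of 14.2% of tested genes called lower. All 10 had every KO library below every WT library in CPM, which 22.1% of tested genes also showed. The median log2 fold change was -0.77 over the 10 genes and 0.0029 over all tested genes. Dnah11 fell the furthest, to 29.9% of its WT level, and Dnah10, Dnah3 and Dnah1 were also below 50% of WT. Dnah5 and Dnah9 kept 79.2% and 78.5%. In bulk RNA, fewer ciliated cells and less RNA per ciliated cell cannot be told apart.

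**Figure D1:**
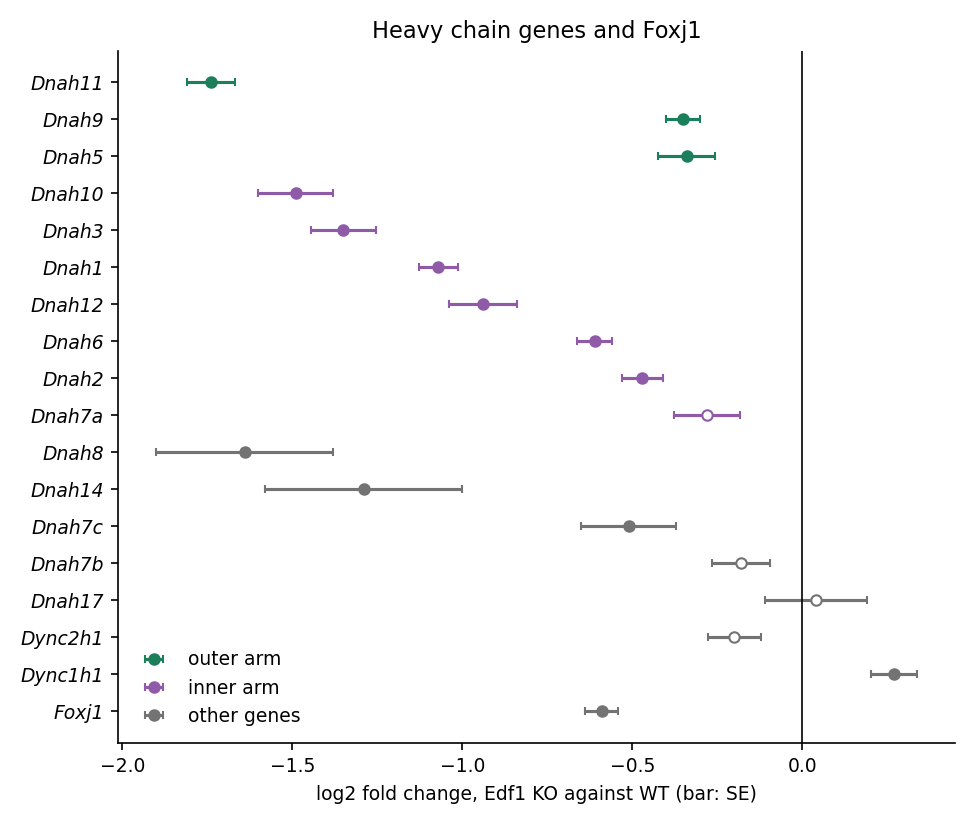
The log2 fold change of Edf1 KO against WT (x axis) is shown for each heavy chain gene, other dynein heavy chains and Foxj1, with bars of 1 standard error and 3 libraries a group; filled points passed an adjusted p of 0.05 in edgeR and open points did not. Dnah11 at -1.74 and Dnah10 at -1.49 lie furthest to the left among the 10 genes, and Dnah7a at -0.28 is the open point among them.

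Of the outer arm genes, Dnah11 was the one with the large change. Dnah11 (chr12:117877982-118199043, minus strand, 82 exons in GRCm38) had 121, 108 and 121 CPM in WT replicates 1 to 3 and 37.1, 32.2 and 35.6 CPM in the KO replicates. The KO libraries lay far below the WT ones and close to each other, and the test gave -1.74 on the log2 scale (SE 0.071, adjusted p = 3.26e-08, edgeR). The gene overlaps Cdca7l on the opposite strand over 642 exonic bases, and 4.37% of its 31-base words also occur in Cdca7l. Whether the counting used strand was not given in the sources used here, so reads from that overlap could belong to either gene.

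Dnah9 (chr11:65831282-66168551, minus strand, 69 exons), the distal β-type chain, was the most abundant outer arm gene, with 322, 302 and 334 CPM in WT and 258, 247 and 247 CPM in KO. Its groups were separated by a gap larger than the spread within either of them, and it fell by 0.35 on the log2 scale (SE 0.05, adjusted p = 0.000243, edgeR). Dnah5 (chr15:28203752-28472052, plus strand, 79 exons), the γ-type chain whose loss in humans is a leading cause of primary ciliary dyskinesia, had 92.4, 77.8 and 94.4 CPM in WT and 70.9, 62.7 and 76.0 CPM in KO. The highest KO library came close to the lowest WT library. Dnah5 fell by 0.34 (SE 0.084, adjusted p = 0.0105, edgeR), and without KO replicate 2 it no longer passed (log2 fold change -0.27, adjusted p = 0.0606, edgeR).

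Among the inner arm genes, Dnah10 and Dnah3 fell the most. Dnah10 (chr5:124725085-124834308, plus strand, 79 exons), one chain of the two-headed arm, had 33.2, 31.6 and 38.5 CPM in WT and 13.7, 10.2 and 12.96 CPM in KO. All KO libraries were below 50% of the lowest WT library, and the log2 fold change was -1.49 (SE 0.11, adjusted p = 1.66e-06, edgeR). Its partner chain Dnah2 (chr11:69420809-69549110, minus strand, 86 exons) had 78.8, 77.8 and 84.5 CPM in WT and 58.1, 55.4 and 60.5 CPM in KO. Dnah2 fell by 0.47 (SE 0.06, adjusted p = 9.78e-05, edgeR), with narrow groups and a clear gap.

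Dnah3 (chr7:119922671-120095280, minus strand, 61 exons), a single-headed type, had 47.2, 42.7 and 47.8 CPM in WT and 17.3, 15.8 and 20.6 CPM in KO. The groups stood well apart, and Dnah3 was at -1.35 on the log2 scale (SE 0.096, adjusted p = 1.19e-06, edgeR). An exonic overlap of 1506 bases with Lyrm1 on the opposite strand holds 11.7% of the 31-base words of Dnah3, the widest overlap among the 10 genes.

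Dnah1 (chr14:31260375-31323896, minus strand, 78 exons), whose loss in humans affects the sperm tail, had 93.0, 99.9 and 100.1 CPM in WT and 47.9, 44.7 and 46.9 CPM in KO. Its KO libraries agreed within a few CPM, and the log2 fold change was -1.07 (SE 0.058, adjusted p = 2.05e-07, edgeR). Dnah12 (chr14:26693274-26891703, plus strand, 74 exons), another single-headed type, had 91.1, 76.6 and 97.4 CPM in WT and 45.8, 39.8 and 52.1 CPM in KO. It varied more within each group than Dnah1 did, and the 2 groups still did not overlap. The log2 fold change of Dnah12 was -0.94 (SE 0.1, adjusted p = 2.49e-05, edgeR).

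Dnah6 (chr6:73017606-73221651, minus strand, 77 exons), a single-headed type, was the most abundant of the 10 genes, with 457, 431 and 470.0 CPM in WT and 299, 283 and 309 CPM in KO. It fell by 0.61 (SE 0.051, adjusted p = 3.47e-06, edgeR), with no overlap. Dnah7a (chr1:53397006-53706784, minus strand, 66 exons) was the least abundant in WT, with 12.9, 14.5 and 15.1 CPM against 11.7, 11.2 and 11.9 CPM in KO. Its lowest WT library was about 1 CPM above the highest KO library, and the difference of -0.28 on the log2 scale (SE 0.098) missed the threshold (adjusted p = 0.0535, edgeR). Without WT replicate 1 it passed (log2 fold change -0.35, adjusted p = 0.0431, edgeR), as it did with a correction for GC content and transcript length (-0.42, adjusted p = 0.00877).

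**Figure D2:**
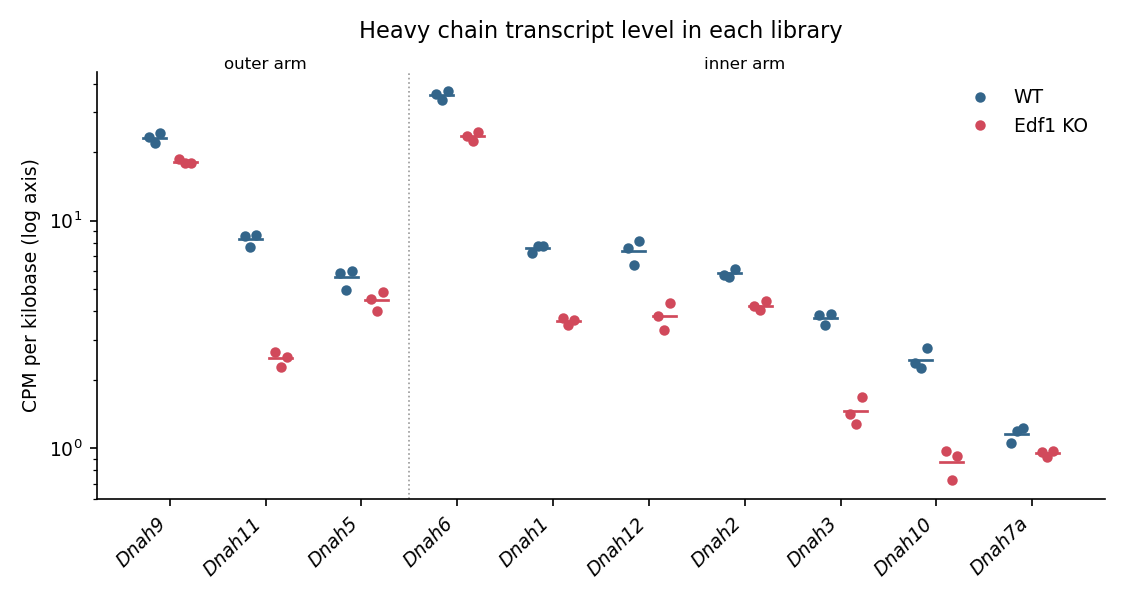
The level of each heavy chain gene is shown in CPM per kilobase of transcript on a log axis, with 1 point for each of the 3 WT and 3 Edf1 KO libraries and a line at the group mean. In every gene the 3 KO points lie below the 3 WT points, with a wide gap for Dnah11, Dnah3 and Dnah10 and a narrow one for Dnah5 and Dnah7a.

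To compare levels between genes, CPM was divided by transcript length in kilobases. In WT the order of mean levels was Dnah6 (35.7 CPM per kilobase), Dnah9 (23.1), Dnah11 (8.31), Dnah1 (7.59), Dnah12 (7.36), Dnah2 (5.86), Dnah5 (5.64), Dnah3 (3.75), Dnah10 (2.45) and Dnah7a (1.16). The libraries of Dnah11 and Dnah1, of Dnah1 and Dnah12, and of Dnah2 and Dnah5 overlapped, so these neighbours were not separated by their spread. In KO the order of levels was Dnah6 (23.5 CPM per kilobase), Dnah9 (18.2), Dnah5 (4.47), Dnah2 (4.23), Dnah12 (3.82), Dnah1 (3.61), Dnah11 (2.49), Dnah3 (1.46), Dnah7a (0.949) and Dnah10 (0.875). Here the neighbours from Dnah5 to Dnah1 each overlapped with the next, as did Dnah7a and Dnah10. Dnah6 and Dnah9 headed both orders, while Dnah11 moved from the third place to the seventh and Dnah5 from the seventh to the third. These places hold among the 10 genes only. Dnah7b, a near-identical copy of Dnah7a outside the 10, was at 11.6 CPM per kilobase in WT and 10.3 in KO. That lies between Dnah9 and Dnah11 in WT and between Dnah9 and Dnah5 in KO. Counts may have been split among such copies, so the place of Dnah7a is uncertain.

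The make-up of the heavy chain pool, given as each gene's share of the summed CPM per kilobase of the 10 genes, shifted in every gene with no overlap between groups. The share of Dnah11 was 8.22% ± 0.208 (SD, n = 3) in WT and 3.91% ± 0.154 in KO, and that of Dnah9 was 22.9% ± 0.0599 in WT and 28.6% ± 1.24 in KO. Dnah6, Dnah5, Dnah2 and Dnah7a also held larger shares in KO, with Dnah6 at 35.4% in WT and 36.9% in KO. Smaller shares in KO were held by Dnah1 (7.53% against 5.69%), Dnah3 (3.71% against 2.29%), Dnah10 (2.43% against 1.37%) and Dnah12 (7.27% against 6.00%). Against the same summed level, 86.4% of all tested genes had every KO library above every WT library and 1.66% had every KO library below, since the summed level itself was at 62.9% of WT in KO. Shares sum to a fixed total, so they are not independent of each other.

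**Figure D3:**
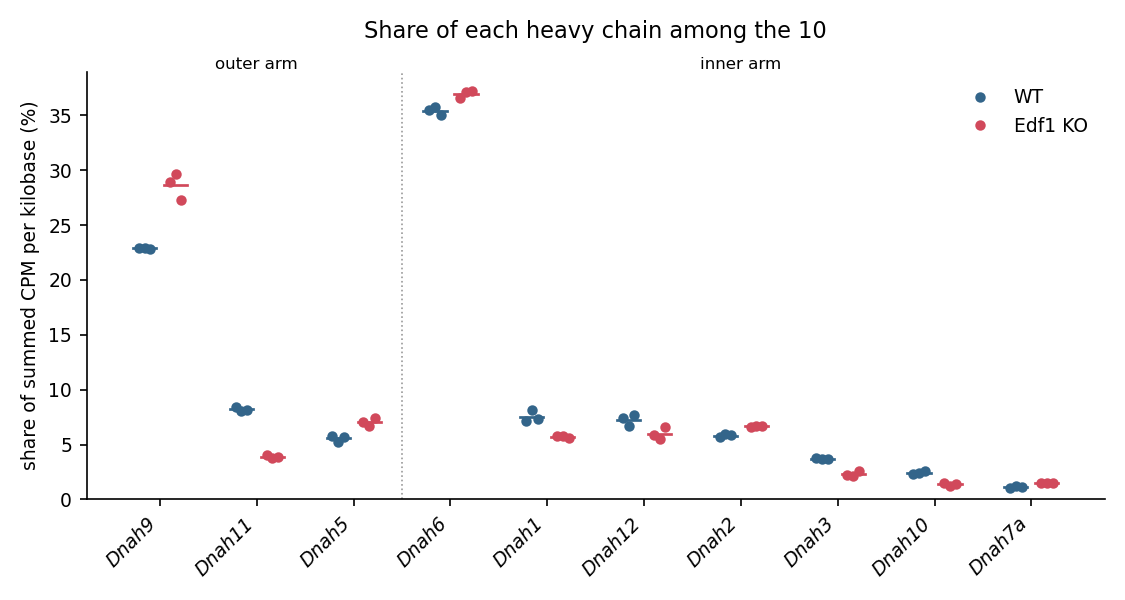
Each gene's share of the summed CPM per kilobase of the 10 heavy chain genes (y axis, percent) is shown for the 3 WT and 3 Edf1 KO libraries, with a line at the group mean. Dnah9 is at 22.9% in WT and 28.6% in KO, and Dnah11 is at 8.22% and 3.91%.

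Outer and inner arm genes did not split cleanly. The median log2 fold change was -0.35 over the 3 outer arm genes and -0.94 over the 7 inner arm genes, yet the gene with the lowest value, Dnah11, belongs to the outer arm. Summed per kilobase, the outer arm genes went from 37.1 ± 2.25 in WT to 25.1 ± 0.849 CPM per kilobase in KO (67.7% of WT), and the inner arm genes from 63.9 ± 3.13 to 38.4 ± 2.14 (60.1% of WT). The outer arm's part of the summed level was 36.7% ± 0.479 in WT and 39.5% ± 0.904 in KO. Without Dnah11 it was 31.03% ± 0.376 in WT and 37.1% ± 0.916 in KO. The inner arm median and sums leave out Dnah7b and Dnah7c, near-identical copies of Dnah7a that are not among the genes followed here. Dnah7b was at 11.6 CPM per kilobase in WT and 10.3 in KO (log2 fold change -0.18). Dnah7c was at 1.90 in WT and 1.32 in KO (-0.51). With both counted, the inner arm median and sum would have fallen less.

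The difference between arms was tested for each outer arm gene by scaling every library to its summed inner arm counts and fitting edgeR to the whole table again. Relative to the inner arm total, Dnah5 was higher in KO by 0.40 on the log2 scale (SE 0.094, 95% interval 0.21 to 0.58, adjusted p = 8.25e-05, edgeR). Dnah9 was higher by 0.39 (SE 0.091, 95% interval 0.21 to 0.57, adjusted p = 6.6e-05, edgeR). Dnah11 was lower, at -1.01 (SE 0.095, 95% interval -1.20 to -0.82, adjusted p = 5.1e-16, edgeR). That adjusted p is smaller than in the unscaled fit (3.26e-08, edgeR), although the change was smaller and the SE larger. Over alternative fits on this scale it ran from 9.39e-29 to 1.75e-07 (edgeR), with Dnah11 at -1.05 to -0.85. The noise of the reference is shared by all genes, so p-values and intervals of scaled fits do not measure replicate spread alone. On this scale 89.6% of all tested genes were called higher and 1.24% lower, because the inner arm total itself fell, so the 2 of 3 genes called higher are near the background while the 1 called lower is in a small minority. Most of the inner arm total is Dnah6, with a mean of 452 CPM in WT and 297 CPM in KO. The total was 774 to 853 CPM in WT and 460 to 514 CPM in KO, without Dnah7b and Dnah7c. A geometric mean of the inner arm counts weighs each gene equally. Scaled to it, Dnah5 was at 0.55, Dnah9 at 0.54 and Dnah11 at -0.85.

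Pairs of chains within an arm were compared as well, all 3 chosen after their values were seen. The ratio of Dnah9 to Dnah11 per kilobase was 2.79 ± 0.069 (SD, n = 3) in WT and 7.33 ± 0.427 in KO. In a fit scaled to Dnah9, Dnah11 was lower in KO at -1.39 on the log2 scale (SE 0.075, 95% interval -1.55 to -1.23, adjusted p = 5.44e-09, edgeR), where 3.80% of tested genes were called lower. The γ-type Dnah5 did not differ from Dnah9 past the threshold: the log2 difference was 0.016 with a 95% interval of -0.16 to 0.19 (adjusted p = 0.87, edgeR). The ratio of Dnah5 to Dnah9 per kilobase was 0.243 ± 0.0140 in WT and 0.246 ± 0.0239 in KO, with overlap. For the two-headed inner arm, Dnah10 relative to Dnah2 was at -1.02 (SE 0.11, 95% interval -1.24 to -0.80, adjusted p = 3.86e-12, edgeR), with 2.80% of tested genes called lower in that fit. Over alternative fits its adjusted p ran from 7.24e-21 to 2.02e-06 (edgeR), so the same limit on scaled fits holds for these pairs.

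Foxj1, the forkhead factor that switches on motile cilia genes, went from 788 ± 43.4 CPM in WT to 523 ± 10.3 CPM in KO (log2 fold change -0.59, SE 0.049, adjusted p = 3.41e-06, edgeR). With libraries scaled to Foxj1, 5 of 10 heavy chain genes were called lower in KO, against 2.13% of tested genes. They were Dnah11 (log2 fold change -1.16, adjusted p = 5.54e-06, edgeR), Dnah10 (-0.91), Dnah3 (-0.77), Dnah1 (-0.48) and Dnah12 (-0.36, adjusted p = 0.0178). Called higher were 2 of 10, Dnah7a at 0.30 (adjusted p = 0.0144, edgeR) and Dnah9 at 0.24 (adjusted p = 0.0112), while 84.9% of all tested genes were called higher on this scale. Not past the threshold were Dnah5 at 0.24 (95% interval 0.0041 to 0.48, adjusted p = 0.0536, edgeR), Dnah2 at 0.11 (-0.051 to 0.28) and Dnah6 at -0.022 (-0.18 to 0.13).

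Values near the threshold on the Foxj1 scale moved across it with single libraries. Dnah12 lost its call without WT replicate 1 (adjusted p = 0.0555, edgeR), WT replicate 3 (0.0665) or KO replicate 2 (0.0886). Dnah9 lost it without KO replicate 1 (adjusted p = 0.0527, edgeR) and Dnah7a without WT replicate 1 (0.0667). Dnah5 passed without WT replicate 1 (adjusted p = 0.0465, edgeR), WT replicate 3 (0.0224) or KO replicate 2 (0.0432), and Dnah6 passed as lower without WT replicate 2 (log2 fold change -0.096, 0.0469). With the radial spoke genes Rsph1, Rsph4a and Rsph9 as the reference in place of Foxj1, Dnah12 was not called (-0.23, adjusted p = 0.0884, edgeR), and Dnah5 (0.38, 0.00491) and Dnah2 (0.25, 0.0116) were called higher.

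**Figure D4:**
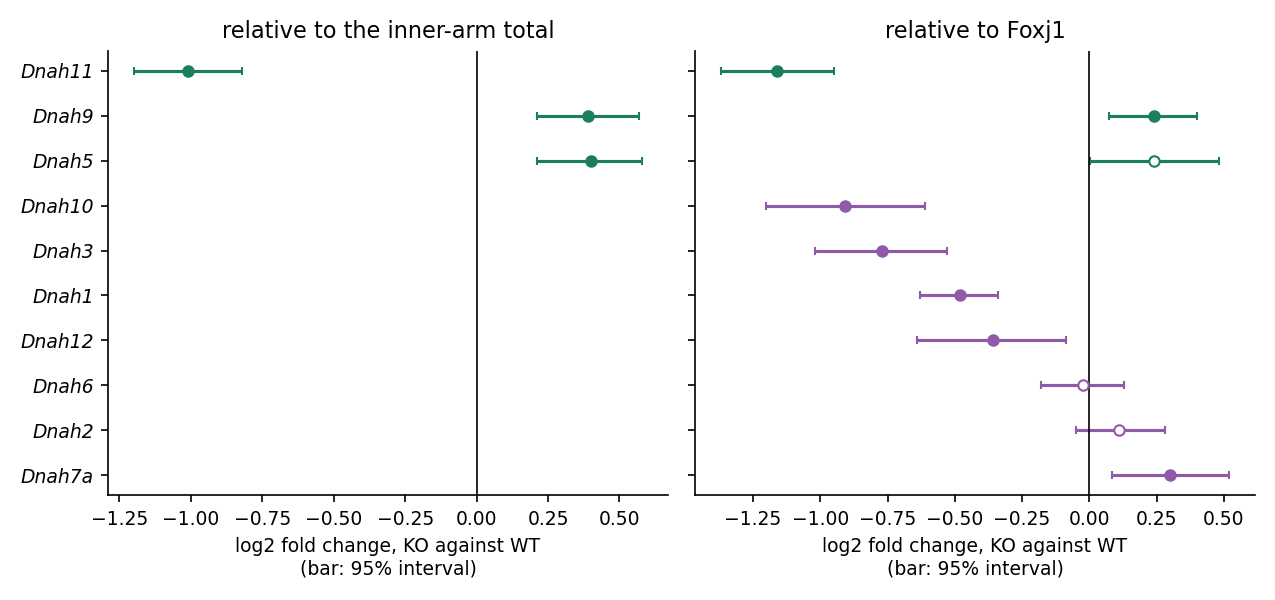
Log2 fold changes of Edf1 KO against WT with each library scaled to the summed inner arm counts (left, outer arm genes) or to Foxj1 (right, all 10 genes), with 95% intervals; filled points passed an adjusted p of 0.05 in edgeR, green marks the outer arm and purple the inner arm. Dnah11 lies at -1.01 and -1.16, while Dnah9 lies at 0.39 and 0.24.

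Promoter windows in RefSeq on GRCm38.p6, from 250 bases before to 50 after the start site, matched 9 of the 10 genes, all but Dnah3. They were searched on both strands for the X-box bound by RFX factors, written here as GTTNC at one end and, after a gap of 3 or 4 bases, GNAAC at the other, a form chosen after the promoters of these genes had been seen. The forkhead core TGTTTA was searched as well, also as its reverse complement. The X-box was found in 3 of 9 windows, those of Dnah9, Dnah6 and Dnah7a, and in 1.98% of 32851 windows of all genes. The forkhead core was found in 4 of 9, those of Dnah5, Dnah11, Dnah12 and Dnah1, and in 13.4% of all windows. The 2 motifs do not overlap each other in any of these windows, and no gene held both. A stretch of 100 bases is shown for each of the X-box promoters, 5′ to 3′ on the gene's strand with the X-box in capitals.
Dnah9 (chr11:66168578-66168677, minus strand): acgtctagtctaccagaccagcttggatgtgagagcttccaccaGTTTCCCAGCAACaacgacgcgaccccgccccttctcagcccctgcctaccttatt
Dnah6 (chr6:73221632-73221731, minus strand): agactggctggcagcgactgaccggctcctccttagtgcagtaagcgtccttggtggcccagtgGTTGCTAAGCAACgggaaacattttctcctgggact
Dnah7a (chr1:53706786-53706885, minus strand): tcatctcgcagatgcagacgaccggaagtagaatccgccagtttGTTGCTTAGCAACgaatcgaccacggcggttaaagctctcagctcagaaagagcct

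In the same orientation, stretches of 100 bases from Dnah11 and Dnah5, outer arm genes with a large and a small change, and from Dnah12, which has 2 matches, carry the forkhead core in capitals. The RefSeq start of Dnah12 lies upstream of the gene start given above from the other annotation.
Dnah11 (chr12:118199177-118199276, minus strand): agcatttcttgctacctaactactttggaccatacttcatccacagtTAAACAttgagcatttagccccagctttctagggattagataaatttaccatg
Dnah5 (chr15:28203616-28203715, plus strand): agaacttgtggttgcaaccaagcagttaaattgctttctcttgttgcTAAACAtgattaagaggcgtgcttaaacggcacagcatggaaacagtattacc
Dnah12 (chr14:26691454-26691553, plus strand): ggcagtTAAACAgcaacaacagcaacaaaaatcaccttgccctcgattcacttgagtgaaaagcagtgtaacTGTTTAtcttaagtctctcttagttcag
The X-box lies 82 to 70 bases before the start site in Dnah9, 36 to 24 in Dnah6 and 57 to 45 in Dnah7a. The 3 genes with an X-box had log2 fold changes of -0.35, -0.61 and -0.28, and the 4 with a forkhead core had -0.34 (Dnah5), -0.94 (Dnah12), -1.07 (Dnah1) and -1.74 (Dnah11). The match in Dnah1 lies after the start site, at bases 20 to 25. Dnah2 (-0.47) and Dnah10 (-1.49) had neither motif in their windows. Neither group of promoters was tested against the other, and a match says only that the letters occur. Of 301 other tested genes with an X-box in the window, 94 were called lower (31.2%) and 19 higher, with a median of -0.094. Of all 14243 tested genes, 14.2% were called lower and 1804 genes higher, and the 2 sets were not tested against each other.

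Dnah7a has near-identical copies, Dnah7b and Dnah7c, on the same chromosome, and counts may have been split among them. The aligned coding sequence of Dnah7a was 97.0% identical to Dnah7b and 96.8% to Dnah7c, and 56.5% of its 31-base words occurred in another gene. The first 60 coding bases of Dnah7a and Dnah7c, and coding bases 133 to 192 of Dnah7b, are shown with the 5 differing positions in capitals. This stretch was required to hold a base private to each copy, so it does not show how dense differences are over the whole coding sequence.
Dnah7a: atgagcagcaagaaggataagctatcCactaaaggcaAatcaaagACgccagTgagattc
Dnah7b: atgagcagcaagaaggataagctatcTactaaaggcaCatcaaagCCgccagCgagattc
Dnah7c: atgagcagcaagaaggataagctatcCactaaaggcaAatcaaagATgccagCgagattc
Dnah7a held 7.93% ± 1.25 (SD, n = 3) of the counts of the 3 copies in WT and 7.55% ± 0.273 in KO, with overlap. The copies together had 181 ± 20.7 CPM in WT and 154 ± 10.3 CPM in KO, also with overlap. Dnah7b, the most abundant copy, had 155, 121 and 154 CPM in WT and 128, 119 and 132 CPM in KO, and its log2 fold change of -0.18 did not pass (adjusted p = 0.127, edgeR); without WT replicate 2 it did (-0.29, 8.23e-05). Dnah7c was called lower at -0.51 (adjusted p = 0.0191, edgeR), a call lost without WT replicate 3, KO replicate 1 or KO replicate 2. How reads that map to several places were counted was not given in the sources used here, so values of single copies are uncertain.

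Other dynein heavy chains did not all follow. Dnah8, a heavy chain best known from sperm tails, went from 3.68 ± 0.607 to 1.17 ± 0.395 CPM, which is -1.64 on the log2 scale (SE 0.26, adjusted p = 0.00055, edgeR). Dnah14 was also called lower, at -1.29 (adjusted p = 0.00627, edgeR), from 1.76 to 0.708 CPM. Dnah17, an outer arm chain of sperm tails, was at 5.55 ± 0.522 CPM in WT and 5.70 ± 0.591 CPM in KO. Its log2 fold change was 0.04 (SE 0.15, adjusted p = 0.87, edgeR), with overlapping groups. The cytoplasmic chain Dync1h1, which carries cargo along microtubules, was called higher at 0.27 (adjusted p = 0.00988, edgeR), but not without KO replicate 1 (0.25, 0.0539) or with the GC and length correction (0.092, 0.0923). Dync2h1, the motor that returns material from the ciliary tip, was at -0.20 (adjusted p = 0.0821, edgeR), and it passed without WT replicate 2 (-0.28) or with the GC and length correction (-0.37). Dnhd1, a related heavy chain domain gene, was at 0.27 (adjusted p = 0.0858, edgeR).

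The partners of the heavy chains were lower as well. The lists below were not chosen independently of these data, so they describe and support nothing further. Beside their counts, 14.2% of all tested genes were called lower. Dynlrb2, a light chain gene, and Foxj1, a regulator, are also among the ependymal markers above. Of 9 tested intermediate and light chain genes, 7 fell, led by Dnaic2 at -1.28, an outer arm intermediate chain, and Nme9 at -1.20. Dnal1 (-0.17) and Dnal4 (-0.094) did not pass, and the list median was -0.78. All 13 tested genes listed as assembly factors fell, from Dnaaf1 at -1.26 and Zmynd10 at -1.15 to Cfap298 at -0.41, with a median of -0.57.

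Of 16 genes for docking complexes, nexin links and the 2 ruler proteins that set where arms bind, 14 fell, led by Tcte1 at -1.22 and the docking protein Armc4 at -1.10. Ccdc114 (-0.19) and Gas8 (-0.16) did not pass, and the median was -0.60. Of 20 genes for radial spokes and the central pair, 19 fell, led by Spag17 at -1.78 and Rsph14 at -1.30, and Rsph3a (-0.14) did not pass, with a median of -0.58. Among 12 regulators of multiciliation 9 fell, with a median of -0.42. Foxn4 (-1.31) and Ccno (-1.25) were the lowest of them, while Gmnc (-0.18), Rfx3 (0.0020) and E2f5 (0.045) did not pass. As listed, the inner arm heavy chains had a lower median than any of these lists, and the outer arm heavy chains a higher one, although no test was made between lists. The inner arm list leaves out Dnah7b (-0.18) and Dnah7c (-0.51), and with both counted its median would no longer be the lowest. The outer arm median is the value of Dnah9 alone, the middle of 3 genes, with Dnah11 at -1.74.

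**Figure D5:**
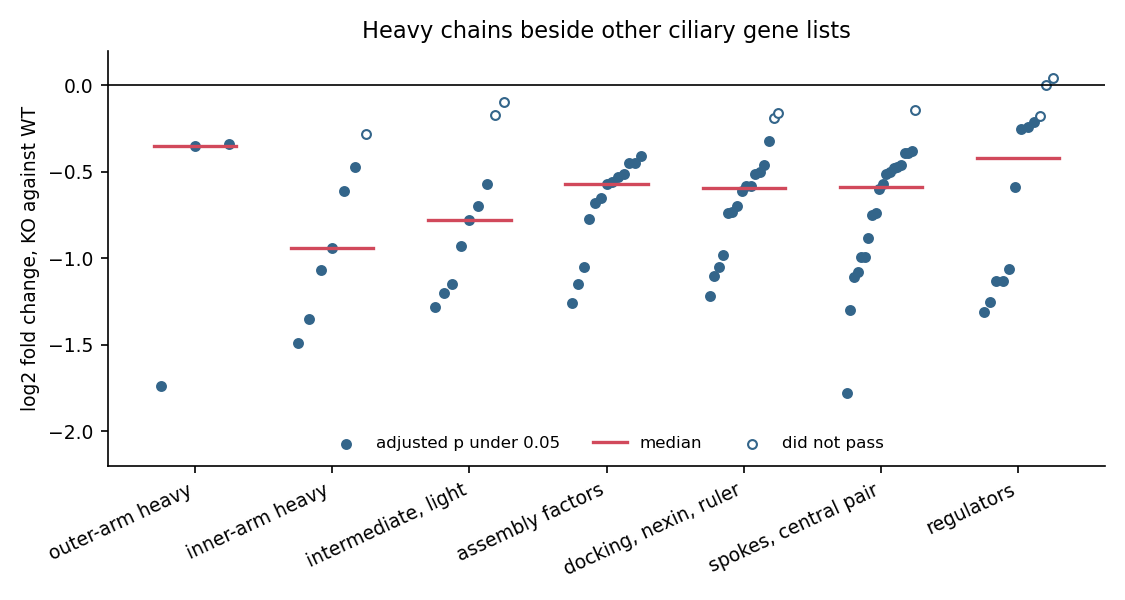
Each point is the log2 fold change of Edf1 KO against WT of 1 tested gene in a heavy chain list or in a list of other ciliary genes; filled points passed an adjusted p of 0.05 in edgeR, open points did not, and the line is the list median. The medians run from -0.94 for inner arm heavy chains to -0.35 for outer arm heavy chains.

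Markers of other cell types moved beside the heavy chains. Of all 14243 tested genes, 14.2% were called lower and 1804 genes higher. Of 10 microglia markers 9 were called lower, with a median of -0.62 and a summed level of 1853 to 1981 CPM in WT and 1227 to 1249 CPM in KO. The summed level of 11 radial glia and astrocyte markers was 10836 to 11186 CPM in WT and 11807 to 12307 CPM in KO, with 3 called higher (Fabp7, Nes, Aldh1l1) and 1 lower (Gfap). Of the markers of fibroblast, mural and endothelial cells, the 6 with enough counts to test (Col1a1, Col1a2, Dcn, Lum, Pdgfrb and Acta2) were called higher, with a median of 0.81, and the whole list summed to 558 to 596 CPM in WT and 712 to 791 CPM in KO. The endothelial markers Pecam1, Cdh5 and Cldn5 and the mural marker Rgs5 had too few counts to test, with mean levels in WT and KO of 0.205 and 0.137 CPM (Pecam1), 0.219 and 0.800 (Cdh5), 0 and 0.0118 (Cldn5) and 0.386 and 0.269 (Rgs5). Choroid plexus markers summed to 106 to 133 CPM in WT and 119 to 142 CPM in KO, and of 5 tested Otx2 was called higher (0.68). Neuron markers, mostly Map2, summed to 254 to 330 CPM in WT and 274 to 290.2 CPM in KO, and of 7 tested Dcx (-1.61) and Tubb3 (-0.81) were called lower. Oligodendrocyte lineage markers summed to 121 to 132 CPM in WT and 132 to 142 CPM in KO, and of 7 tested Cspg4 was called higher (0.38). Pituitary hormone genes moved in both directions. Prl had 0 counts in every WT library and 12.2, 9.75 and 4.64 CPM in the KO libraries, and Gh had 0 counts in WT and 15, 10 and 15 counts in KO. Pomc (3.50 CPM in WT, 13.3 in KO) and Cga (0.118 in WT, 2.61 in KO) were called higher, and Lhb (14.7 in WT, 5.59 in KO) was called lower. The part of these cell types in the heavy chain changes was not tested.

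Other long transcripts were more often called higher than lower in these libraries. The annotated transcripts of the 10 genes are 12009 to 15637 bases long, and of 354 other tested genes with transcripts over 10 kilobases, 19 were called lower and 82 higher, with a median log2 fold change of 0.16. Of all 14243 tested genes, 2029 were called lower and 1804 higher. The part of transcript length in the heavy chain changes was not tested. In genes under 2 kilobases the median was -0.067. A per-library correction for GC content and length moved the heavy chains to lower values, for example Dnah9 to -0.52 and Dnah11 to -1.90, and all 10 were then called lower, in a fit that called 16.8% of all tested genes lower.

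The genes whose pattern over the 6 libraries was most like the mean pattern of the 10 heavy chains were Fbxl13, Ppfia4, Stil, Ccdc146 and Ckap2l. Likeness was the root mean square distance of centred log2 CPM over the 6 libraries, among 11012 candidate genes with a mean log2 CPM of at least 3. Fbxl13, which encodes the nexin link protein also known as Drc6, had a distance of 0.028 and fell by 0.86 on the log2 scale. Ccdc146, a centriole and microtubule associated protein, had a distance of 0.058 and fell by 0.92. Ppfia4, Stil and Ckap2l had distances of 0.048, 0.050 and 0.060, with log2 fold changes of -0.90, -0.93 and -0.85. The heavy chains themselves lay 0.091 to 0.44 from their mean, and the median distance of all candidates was 0.44. The 5 genes were nearer to that mean than any of the 10, but they were picked for the smallest distances among 11012 candidates. The 10 were not picked for likeness, so nothing further is drawn from that.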

How the data were processed

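The deposited counts, whole numbers per gene symbol with 1 column per library, were used as the authors deposited them. Per the submitters' processing notes, FastQC 0.11.2, cutadapt 1.11, HISAT2 2.1.0 and GRCm38 were used. The counting program, its annotation, strand and rule for multiply mapped reads are not given in the sources used here. No row lacked a gene name (0) and 0 sample columns were unused. In R 4.3.3, edgeR 4.0.16 (filterByExpr, TMM, quasi-likelihood test, Benjamini-Hochberg over all 14243 tested genes, threshold 0.05) compared KO with WT, with no covariate. Standard errors were derived from the F statistic (log2 fold change over the root of F). CPM used TMM-scaled totals; transcript lengths, coordinates and exons came from GENCODE M21. The fits were checked on simulated data. Replicate pairs differed beyond sampling noise (chi-square per degree of freedom 3.03 to 10), so each of the 6 libraries was counted as 1 replicate. In scaled fits, library sizes were the inner arm, Foxj1, Dnah9 or Dnah2 counts, whose noise all genes in the fit then share. Genes named were the 10, Edf1, Foxj1, other heavy chains and, of each pathway list, the 2 lowest, the highest and all that did not pass, plus the 5 nearest genes; marker and reference genes named beyond this were chosen after their values were seen. The 10 genes and all lists were chosen with earlier results of these data known. Alternatives used DESeq2 1.42.0, limma 3.58.1 (voom), other scalings, filters and thresholds, a replicate block, a GC and length correction, and leaving out each library.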

Additional observations from a re-analysis of the deposited data

How the results depend on the processing

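The count of heavy chain genes called lower was 8 to 10 over 15 alternatives, and that of outer arm genes called lower relative to the inner arm total was 1 in all 11 run for it. Relative to Foxj1 the count was 4 to 6. In the same order, the main fits called 14.2%, 1.24% and 2.13% of all tested genes lower. Over all genes, 3833 were called at an adjusted p of 0.05 and 2213 under 0.01, a stricter threshold by construction, and leaving out 1 library gave 2656 to 4326, the highest without WT replicate 2. Of 140 refits of single heavy chain genes, 137 kept direction and call, 1 lost its call and 0 changed direction. Values near 0 changed sign: Dnah17 was at -0.14 with the GC and length correction and at -0.043 to 0.11 with 1 library left out. Dnah6 relative to Foxj1 was at 0.11 with radial spoke genes as reference and at -0.096 to 0.033 with 1 library left out, and Dnah5 relative to Dnah9 at -0.063 to 0.078. The cause was not tested. Same-numbered replicates did not pair (correlations of deviations 0.069, 0.060 and 0.037). With the replicate number as a block, 4065 genes changed and 9 heavy chain genes were called lower, and Dnah7b, Dync2h1 and Dnah5 relative to Foxj1 then passed. Depth limits the least abundant genes: Dnah7a rests on 187 to 343 counts a library and Dnah10 on 183 to 881.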
